A study of Mus musculus with 4 samples.

Results

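The clustered protocadherin genes are a family of neighbouring genes for cell-surface proteins of the cadherin type, arranged on mouse chromosome 18 as an alpha, a beta and a gamma cluster. They were taken here as every row on chromosome 18 whose symbol starts with Pcdha, Pcdhg, or Pcdhb and a digit. This gave 58 symbols of the 26161 gene symbols outside the rDNA contig, or 8.81% of the 658 symbols on chromosome 18. The alpha cluster held 14 genes, the beta cluster 22 and the gamma cluster 22.

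In the study, CUT&Tag against the enzyme that transcribes rDNA, RNA polymerase I (Pol I), was carried out in the mouse embryonic stem cell line C64. In this assay an antibody brings a transposase to its target on chromatin. Of its 4 libraries, 2 came from untreated cells (control) and 2 from cells that received auxin at 500 nM for 6 h. No degron-tagged protein is named in the labels, and neither the number of clones behind C64 nor separate cultures for the replicates are stated. The table described here is the gene annotation of the series, in mm10 coordinates, with no value for any library. No Pol I level, depth, replicate error or effect of auxin on these genes is therefore reported, and every value below is a fixed position or length in bases.

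In the alpha and gamma clusters each gene has a variable first exon of its own, behind its own promoter, which encodes the extracellular cadherin repeats, the membrane segment and the start of the cytoplasmic part. That exon is spliced to a small set of constant exons, used in common by the whole cluster, which encode the rest of the cytoplasmic part. Beta genes lack constant exons, and in neurons each cell uses a few genes of the clusters, which gives its surface an identity of its own.

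All 58 genes lay on the plus strand, with 1 row per symbol, between positions 36930285 (first base of Pcdha1) and 37841873 (last base of Pcdhgc5) of chromosome 18, an extent of 911589 bases. The alpha cluster ran from 36930285 to 37188897 (258613 bases), the beta cluster from 37264998 to 37521419 (256422 bases) and the gamma cluster from 37661775 to 37841873 (180099 bases). Between alpha and beta lay 76100 bases, and between beta and gamma 140355 bases. Exons of the family filled 19.1% of the extent, and 43.6% of it lay outside the span of any family member.

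**Figure D1:**
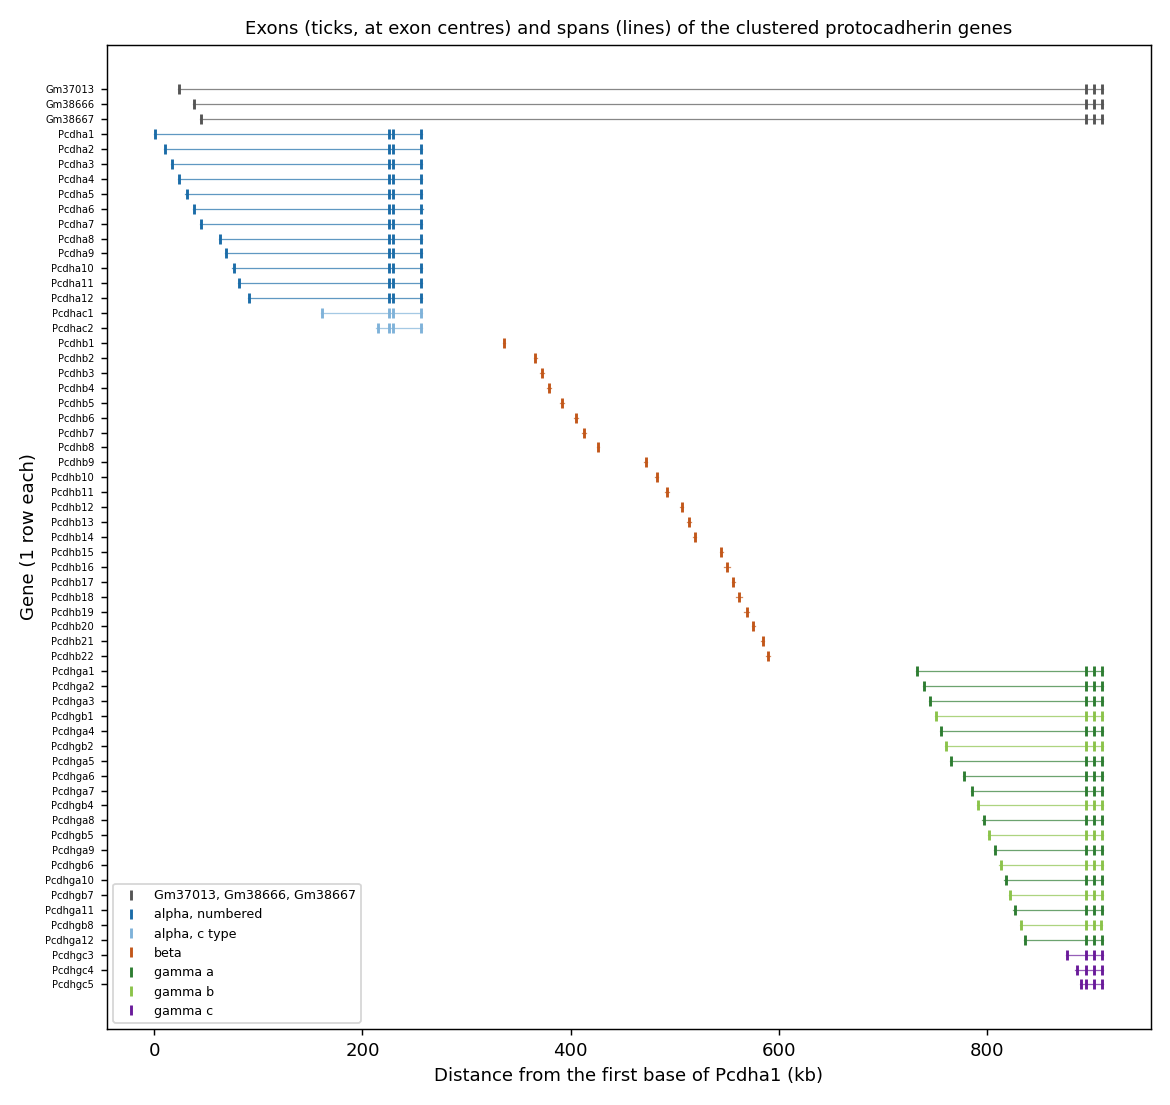
Each line is the span of 1 gene and each tick the centre of an exon, plotted by distance from the first base of Pcdha1 in kb, with the 3 Gm genes on top. The alpha and gamma genes start at different places and end on common exons, the 22 beta genes are single ticks, and Gm37013, Gm38666 and Gm38667 run from the alpha first exons to the gamma constant exons.

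The constant exons gave the alpha and gamma genes their common end. All 14 alpha genes and all 22 gamma genes had 4 exons, the first differing between genes and the other three starting at identical positions within a cluster. In alpha, exon 2 (37156155 to 37156213, 59 bases) and exon 3 (37159265 to 37159353, 89 bases) had identical edges in all 14 genes. In gamma, exon 2 (37825021 to 37825079) and exon 3 (37833265 to 37833353) were again 59 and 89 bases long and had identical edges in all 22 genes. The sizes of these exons were thus equal in the clusters, while the introns between them were not, at 3051 bases in alpha and 8185 in gamma.

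The last exon began at 1 position in each cluster, 37184946 in alpha and 37839903 in gamma, but ended at several. In alpha it was 2712 bases long in 8 genes, 2718 in 4 (Pcdha3, Pcdha5, Pcdha7 and Pcdhac2), 2716 in Pcdha2 and 3952 in Pcdha6. The Pcdha6 row thus ran 1234 bases past the next longest, whereas the other 13 ends lay within 6 bases of each other. In gamma it was 1968 bases in 10 genes, 1971 in 9, 1970 in Pcdhgb2 and 1961 in Pcdhga9, so that the ends of the 21 coding genes lay within 10 bases. Intron 3, which precedes this exon, measured 25592 bases in alpha and 6549 in gamma.

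The constant coding part was longer in alpha than in gamma. It held 459 bases in alpha (59, 89 and 311 in the exons in order), which is 153 codons with the stop codon, and 375 bases in gamma (59, 89 and 227), which is 125 codons. This made up 15.2% to 16.4% of the coding bases of an alpha gene and 13.2% to 13.7% of those of a coding gamma gene. The remaining part of each coding sequence lay in the first exon.

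The variable first exons were long and similar in coding length. The coding part of the first exon ranged in the 12 numbered alpha genes from 2346 bases (Pcdha5) through a median of 2383.5 to 2481 (Pcdha9). The gamma genes fall into types named a, b and c, with 12, 7 and 3 members, and type b counts Pcdhgb1, Pcdhgb2 and Pcdhgb4 to Pcdhgb8. In the 12 a-type genes the range was 2412 (Pcdhga3) to 2433 (Pcdhga7) with a median of 2424, and in the 6 coding b-type genes 2364 (Pcdhgb4) to 2418 (Pcdhgb6) with a median of 2409. The a-type genes therefore spread over fewer bases than the b-type, and both ranges overlapped that of the numbered alpha genes.

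The c-type genes stand at the downstream end of the alpha and gamma clusters. The median coding part of their first exons was 2499 bases in alpha and 2451 in gamma, above those of the other types. Pcdhac1 had 2436 coding bases there and Pcdhac2 had 2562, the highest value of the family. Pcdhgc3 had 2430, Pcdhgc4 had 2451 and Pcdhgc5 had 2460. Of these, Pcdhgc4 and Pcdhgc5 lay above every a-type and b-type value, as did Pcdhac1 and Pcdhac2, while Pcdhgc3 lay below Pcdhga7. Pcdhac1 lay below Pcdha9 among the numbered alpha genes. The whole coding sequence came to 965 codons with the stop codon for Pcdhac1, 1007 for Pcdhac2, 935 for Pcdhgc3, 942 for Pcdhgc4 and 945 for Pcdhgc5.

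In all 35 coding alpha and gamma genes the coding part of the first exon was a multiple of 3 bases, so each variable exon met the constant exons in the same reading frame. For complete coding sequences this follows from the constant part, whose 459 bases in alpha and 375 in gamma are multiples of 3. It thus counts as 1 observation per cluster. The whole coding length was a multiple of 3 in 57 of 57 coding members, which holds for any complete coding sequence and is not a separate observation. A coding exon of at least 2000 bases was present in 57 of 57 coding members, against 3.33% of the 20992 coding gene loci on the assembled chromosomes. The limit lies below the lowest member value, 2319 bases in Pcdhb6, so the full count follows from where it was set. A locus is here the merged rows of 1 symbol on 1 strand. Members are copies of related genes and not independent, so no test of such a difference is given here or later.

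**Figure D2:**
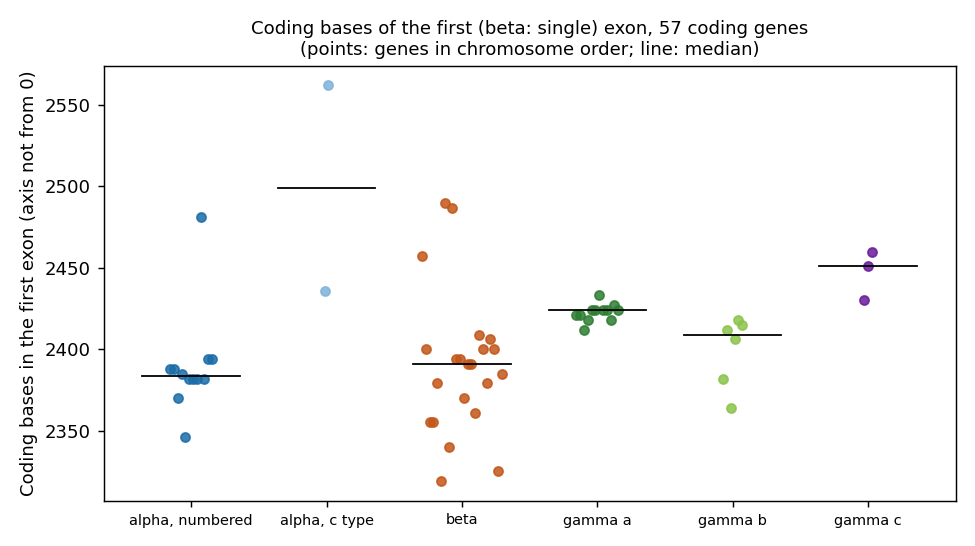
Points are the coding bases in the first exon of each of the 57 coding genes by type (for beta, the single exon), and lines are medians. The a-type gamma genes lie within 2412 to 2433 bases, the beta genes spread from 2319 to 2490, and Pcdhac2 stands highest at 2562.

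Pcdhgb8 departed from the other gamma genes. It was the 1 member without a coding part, and the RefSeq table classes it as a transcribed pseudogene, while the other 57 members are classed as protein coding. Its first exon of 2499 bases was the shortest of the gamma cluster, and its last exon held 587 bases. Its row ended 1374 bases before the next shortest gamma row and 360 bases past the end of the coding part that the other gamma genes share. It still had exons 2 and 3 with the edges common to the cluster.

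The beta genes were complete in 1 exon each. This held for 22 of 22, whereas 10.2% of coding loci had a single exon in every row. Their coding length ranged from 2319 bases (Pcdhb6, 773 codons with the stop codon) through a median of 2391 to 2490 (Pcdhb7, 830 codons), close to the coding part of the alpha and gamma first exons. Row length varied more, from 2340 bases (Pcdhb8) through a median of 3417.5 to 5271 (Pcdhb16).

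That spread came mostly from the bases after the coding part. This downstream non-coding stretch was 2641 bases in Pcdhb16, 2506 in Pcdhb18 and 2152 in Pcdhb19, and in the remaining beta genes at most 1248 (Pcdhb3 and Pcdhb13). The median over the cluster was 849.5 bases. Upstream of the coding part the beta rows held 0 to 221 bases, with a median of 163.5. Pcdhb1 (2457 bases) and Pcdhb8 held no non-coding base on either side, so their rows were the coding sequence alone.

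Several rows began at the first coding base. This was the case for 7 of 14 alpha genes (Pcdha1, Pcdha8, Pcdha9, Pcdha10, Pcdha11, Pcdha12 and Pcdhac1), 2 of 22 beta genes and 0 of 21 coding gamma genes. In the other alpha genes the upstream non-coding stretch ran from 77 bases (Pcdha4) to 291 (Pcdhac2). In the coding gamma genes it ran from 99 (Pcdhgb2) through a median of 168 to 537 (Pcdhga12), with Pcdhgc4 next at 454. A window placed on the row start is thus centred on the coding start in 9 of 57 coding members, and whether any row start is a transcription start was not tested.

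The genes mostly followed each other at short steps of uneven length, with a few wide ones. From the first base of one gene to that of the next, the median step was 7440 bases in alpha (13 steps), 7842 in beta (21 steps) and 5330 in gamma (21 steps). The shortest were 5413 bases (Pcdha8 to Pcdha9), 4222 (Pcdhb15 to Pcdhb16) and 3779 (Pcdhgb8 to Pcdhga12). The a-type and b-type gamma genes were intermixed. From Pcdhga7 to Pcdhga12 they alternated without exception, in the order Pcdhga7, Pcdhgb4, Pcdhga8, Pcdhgb5, Pcdhga9, Pcdhgb6, Pcdhga10, Pcdhgb7, Pcdhga11, Pcdhgb8 and Pcdhga12.

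The c-type genes were set apart from the rest of their cluster. Pcdhac1 began 69906 bases after Pcdha12, and Pcdhac2 another 53542 bases on, against at most 18656 bases (Pcdha7 to Pcdha8) between numbered alpha genes. Pcdhgc3 began 40830 bases after Pcdhga12, against at most 12726 bases (Pcdhga5 to Pcdhga6) among the a-type and b-type genes. Pcdhgc4 and Pcdhgc5 followed at 8669 and 4467 bases, which is within the range of the other gamma steps. Among the beta genes the widest steps were 45584 bases (Pcdhb8 to Pcdhb9), 29842 (Pcdhb1 to Pcdhb2) and 25889 (Pcdhb14 to Pcdhb15).

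**Figure D3:**
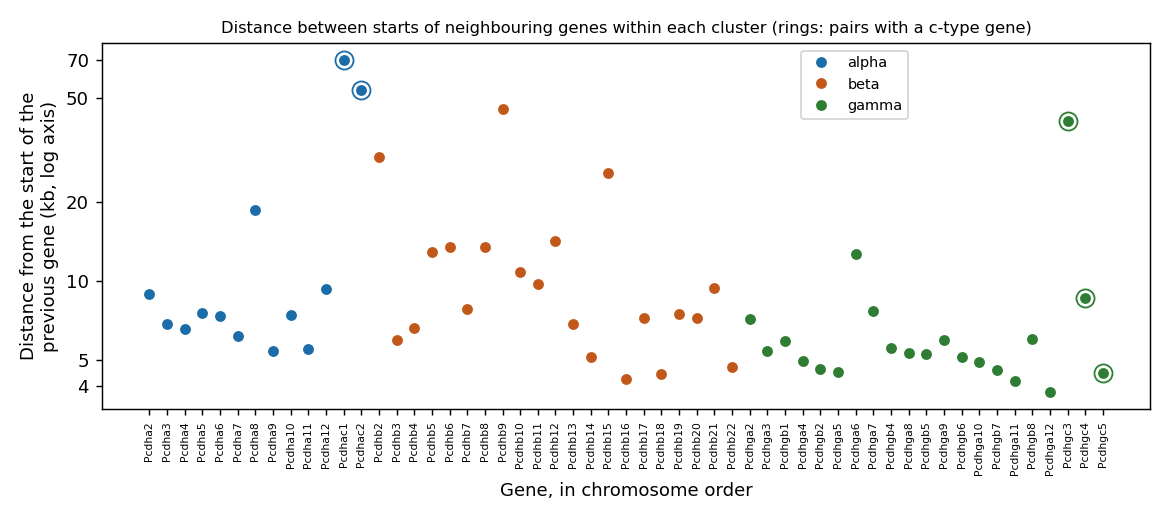
Each point is the distance in kb (log axis) from the start of the previous gene in the same cluster, in chromosome order, and rings mark pairs with a c-type gene. Most points lie between 4 and 15 kb, and the steps to Pcdhac1, Pcdhac2, Pcdhb9 and Pcdhgc3 stand above 40 kb.

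As the alpha and gamma genes share their last exons, their spans were stacked inside each other. All 91 pairs of alpha genes and all 231 pairs of gamma genes shared bases, and 0 of 231 pairs of beta genes did. Of these 322 pairs, 202 (62.7%) had one gene entirely inside the other, and in the others the gene that started later also ended later. This split turned mostly on a few bases at the row ends. Apart from Pcdha6 and Pcdhgb8, the ends lay within 6 bases of each other in alpha and within 10 in gamma. The first exons of 13 of 13 further alpha genes lay within intron 1 of Pcdha1 (223482 bases), and those of 21 of 21 further gamma genes within intron 1 of Pcdhga1 (160655 bases). Intron 1 was shorter the nearer a gene lay to the constant exons, down to 9624 bases in Pcdhac2 and 2886 in Pcdhgc5.

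Spans shrank in the same order. Pcdha1 spanned 257373 bases, Pcdha12 167428, Pcdhac1 97522 and Pcdhac2 43986. Pcdhga1 spanned 180096 bases, Pcdhga12 76294, Pcdhgc3 35464, Pcdhgc4 26795 and Pcdhgc5 22328. The exons took 2.04% of the span in Pcdha1 and 21.1% in Pcdhgc5. The 58 spans added up to 5237750 bases over 514349 distinct ones, so a base within a member was counted 10.2 times on average.

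Another 3 genes, outside the naming rule, joined the alpha cluster to the gamma cluster. Gm37013 (36952648 to 37841873, 889226 bases), Gm38666 (36967631 to 37841873, 874243 bases) and Gm38667 (36973802 to 37841873, 868072 bases) each had 4 exons on the plus strand. Their first exons ended at the same base as those of Pcdha4, Pcdha6 and Pcdha7, and their other three exons were identical to those of gamma genes, with 0 identical to the alpha constant exons. The RefSeq table gives them the other names Pcdha4-g, Pcdha6-g and Pcdha7-g. Among the other names of Gm37013 it also lists Pcdha4 itself. Whether such transcripts were made in these cells was not tested.

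The paired first exons differed by a few bases at their upstream edge. Gm37013 started 41 bases before Pcdha4 and Gm38667 9 bases before Pcdha7, with the same coding start in each pair. Gm38666 started 6 bases after Pcdha6, but its coding part began 27 bases earlier. With the gamma constant part, Gm37013 had 920 codons with the stop codon against 948 for Pcdha4. Gm38666 had 928 against 947 for Pcdha6, and Gm38667 had 919 against 947 for Pcdha7.

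These genes held the beta cluster and most of the family inside their spans. Intron 1 of Gm37013 (869870 bases) contained all 22 beta genes and the first exons of 54 of the 58 members. Its span held 59 other symbols, 55 of them members, and the spans of Gm38666 and Gm38667 held 55 and 54. Of all 26129 loci on the assembled chromosomes, 1 outside this locus (Sfmbt2 on chromosome 2, with 72, named after its value was seen) held more symbols than these. In total 55 of 58 members lay entirely inside a locus of another symbol, against 8.17% of all loci. The exceptions were Pcdha1, Pcdha2 and Pcdha3, which start before Gm37013. Pcdha2 and Pcdha3 start inside Pcdha1, but their rows end at 37187661 and 37187663, just past its end at 37187657.

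**Figure D4:**
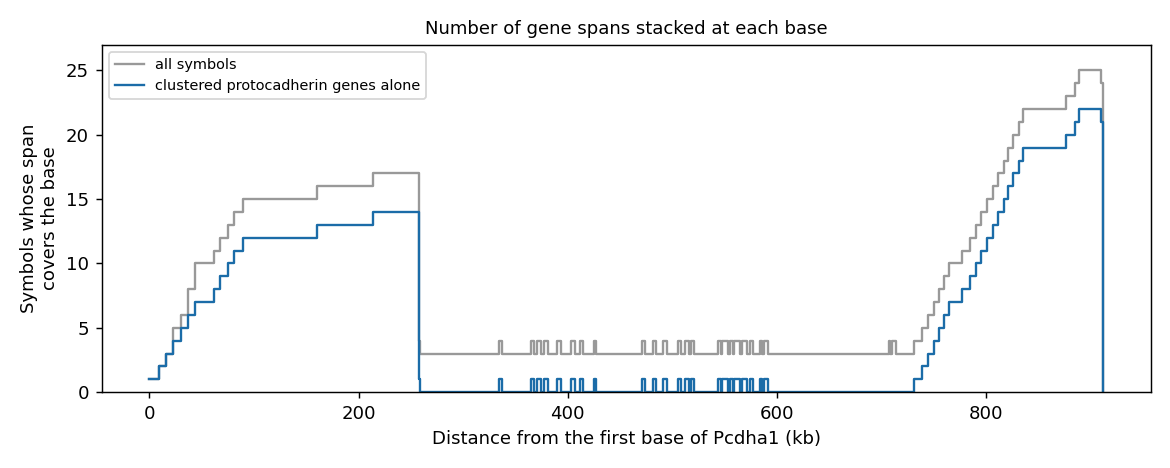
The lines give the number of gene spans that cover each base, for the family alone and for all symbols, by distance from the first base of Pcdha1 in kb. The count climbs to 14 in alpha and 22 in gamma for the family alone and to 17 and 25 with all symbols, and stays at 3 or 4 in the beta cluster once the joining genes are counted.

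How many bases belonged to 1 gene therefore depended on whether spans or exons were taken. Over spans, 8920 of the 514349 bases of the family (1.73%) were covered by 1 symbol, and all of them lay at the start of Pcdha1, before Pcdha2. The other 57 members had 0 such bases, against 8.21% of all loci with none. Among family members alone, with the joining genes set aside, 92943 bases (18.1%) were covered once. In that count the beta genes contributed all of their 75637 bases, alpha 10154 and gamma 7152.

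Over exons, 161350 of 173772 bases (92.9%) belonged to 1 symbol. In beta this was 75637 of 75637 bases, in gamma 57263 of 59382 (96.4%) and in alpha 28450 of 38753 (73.4%). Among family members alone the alpha share was 35887 of 38753 (92.6%), and the gamma share stayed at 96.4%. By gene, the share of exon bases held alone had a median of 55.0% in gamma, from 54.2% (Pcdhgb2) to 77.3% (Pcdhgb8, with the shortened last exon). In alpha the median was 45.6%, from 0% to 49.9% (Pcdhac2). In each alpha and gamma gene other than Pcdha6, the exon bases held alone were those of the first exon or none.

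Pcdha4, Pcdha6 and Pcdha7 were the members whose first exons were shared with another symbol. Pcdha4 shared all 2462 bases of its first exon with Gm37013 and Pcdha7 all 2468 with Gm38667, so that 0 exon bases of these genes were in 1 symbol only. Pcdha6 shared 2507 of 2513 with Gm38666, and the 1240 exon bases it held alone were the remaining 6 and the 1234 at its extended end. The first exons of the other 55 members, with the beta exons counted, were each held by 1 symbol in full. Among family members alone, 58 of 58 were.

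**Figure D5:**
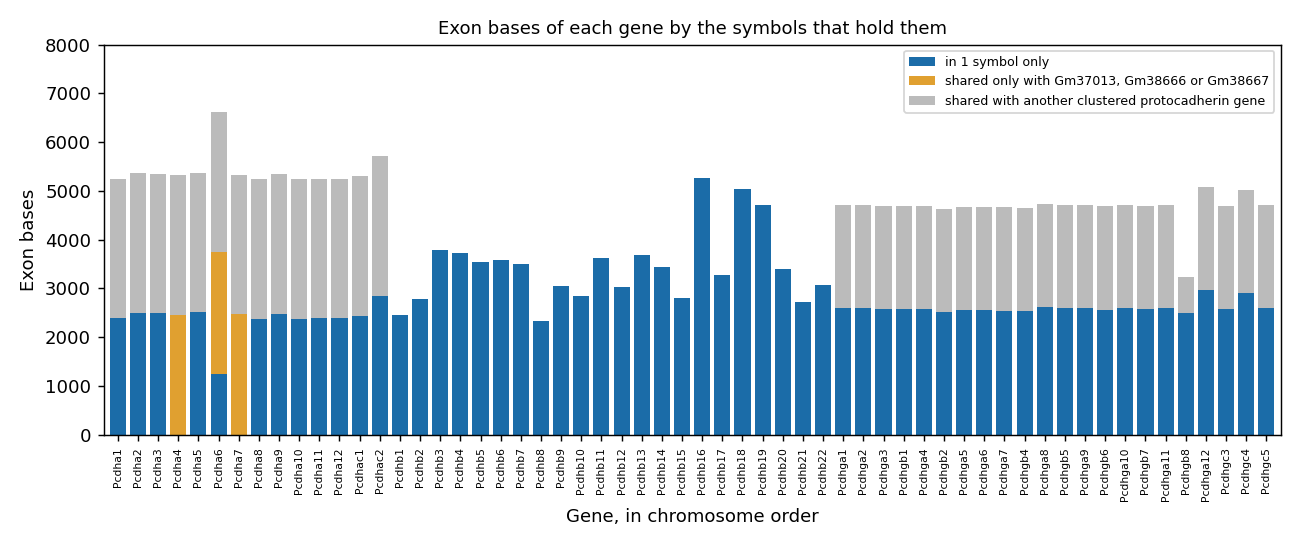
Bars give the exon bases of each gene in chromosome order, split into bases held by 1 symbol, bases shared only with Gm37013, Gm38666 or Gm38667, and bases shared with another family member. Beta bars are all of the first kind, and Pcdha4 and Pcdha7 have none of it.

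An exon identical to one of another symbol was found in 36 of 58 members (14 alpha, 22 gamma and 0 beta), against 0.777% of all loci. These members made up 17.7% of the 203 loci with such an exon. By the looser measure of at least 1 exon base shared on either strand, 36 of 58 members were counted against 14.0% of all loci. Gamma exons 2 and 3 were each held by 25 symbols, 22 members and the 3 joining genes, and alpha exons 2 and 3 by 14. Of the 237552 distinct exons on the assembled chromosomes, 6 were held by 10 or more symbols, and all 6 were constant exons of these clusters. A sum over rows enters each base of gamma exons 2 and 3 25 times.

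Row starts were more distinct than spans. The smallest distance between the starts of neighbouring members was 3779 bases. Windows of 500 bases to each side of the row start met no such window of another member in 58 of 58 genes, and of no other symbol in 55. Pcdha4, Pcdha6 and Pcdha7 were the exceptions, with the joining genes 41, 6 and 9 bases away.

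Few other genes lay in or near the clusters. The nearest upstream was Gm6756, which the RefSeq table classes as a transcribed pseudogene, 8077 bases before Pcdha1. No other row stood between alpha and beta apart from the joining genes. Between beta and gamma were Slc25a2, which encodes a mitochondrial carrier, 115958 bases after Pcdhb22, and Taf7, which encodes a TFIID subunit, 17570 bases before Pcdhga1. Both lay on the minus strand and shared 0 bases with a member. Downstream, Diaph1, which encodes an actin-nucleating formin, lay on the minus strand 1727 bases after the gamma cluster, so that the clusters and Diaph1 end towards each other.

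The non-clustered protocadherins, which lie apart from the clusters, also had long coding exons. All 12 in the list had a row, and 11 of them had a coding exon of at least 2000 bases, such as 3174 bases in Pcdh7, 3036 in Pcdh9, and 2280 and 2880 in Pcdh1 and Pcdh12, which also lie on chromosome 18. The exception was Pcdh15, with 26 to 37 exons and none over 1444 coding bases. In the list, 0 of 12 had an exon identical to one of another symbol, against 0.777% of all loci, and 0 of 12 had 1 exon in every row, against 10.2% of coding loci. At least 1 exon base was shared with another symbol in 3 of 12 (Pcdh8, Pcdh10 and Pcdh19), against 14.0% of all loci, and these held 89.1%, 98.7% and 99.4% of their exon bases alone.

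The Ugt1a genes, which encode enzymes of glucuronic acid transfer, also shared downstream exons, but their longest coding exons were shorter. Each of the 9 genes had 4 exons identical to those of another Ugt1a gene, and 3 of these exons were held by all 9. Nesting of spans was likewise not particular to the protocadherins. Of the 9 Ugt1a loci, 8 had 0 span bases in 1 symbol only, against 8.21% of all loci. Also 8 of 9 lay entirely inside a locus of another symbol, against 8.17% of all loci. The longest coding exon of the Ugt1a genes had a median of 858 bases, against 2386.5 in alpha and 2421 in gamma. Their median span was not the smallest, at 115742 bases against 204522 in alpha and 113534 in gamma. Ugt1a6a and Ugt1a6b had 6 exons, with first exons of 127 and 122 bases, and the other Ugt1a genes had 5 exons. Olfactory receptor genes were set beside the beta genes for their single exons. Of 1107 coding olfactory receptor loci, 991 (89.5%) had 1 exon in every row, and their longest coding exon had a median of 942 bases, against 2391 in beta. These differences in length were between fixed coordinates and were not tested.

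Of genes known to act on the clusters, all 13 in the list had a row, among them Ctcf, whose product binds at the promoters and enhancers of the clusters (12 exons), Rad21, a cohesin subunit that acts with it (14 exons), and Smchd1, a silencing factor of the clusters (48 exons). In this list 0 of 13 had an exon identical to one of another symbol (0.777% of all loci), and 0 of 13 had a coding exon of at least 2000 bases (3.33% of coding loci). At least 1 exon base was shared with another symbol in 2 of 13 (Wapl and Setdb1), against 14.0% of all loci. These shares are near those of all loci and say nothing particular about the list.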

How the data were processed

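Pol I CUT&Tag libraries were made from untreated cells (2) and auxin-treated cells (2), and the analysed file is the annotation of the whole series in 12-column BED layout. The submitters' processing notes name mm10 as the build, and bedtools, Bowtie2, deepTools and FastQC as tools. Versions, roles and the making of the annotation were not given in the sources used here. The score column deposited by the authors was 0 in all 50727 rows, so it holds no measurement. Positions are printed counted from 1. The planned limma test between groups was not run, since the table has no value per library and the depth is unknown.

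Rows were read with Python 3.11.15 and numpy 2.4.6, and figures drawn with matplotlib 3.10.9. Exons, coding parts and spans were taken from the block and coding columns, with codons as coding bases divided by 3. Bases in 1 symbol were counted over either strand, and the routine was tested on simulated data. Symbols were matched to a RefSeq gene table of GRCm38.p6 (58 of 58, all with identical start and end). Of the 58 members, 0 matched an entry of the RefSeq promoter table, and no sequence is printed. Genes are named by position (first and last of a cluster), by extreme values, by departure from the cluster, as c type, as overlapping or neighbouring genes, or from comparison lists. The members and lists were chosen with earlier results of these data known. The start windows of 500 bases were added after seeing the data. Alternatives were other definitions of members, shared exons, unique bases, spacing and overlap.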

Additional observations from a re-analysis of the deposited data

How the results depend on the processing

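No paired analysis was possible because no column belongs to a library, and for the same reason the pseudocount, leaving out a replicate and the other settings for Pol I occupancy were not run. Of 18 alternatives, 12 left the count or median within 1.5 times. Several of these 12 could not change the value. Each member had 1 row, all members lay on the plus strand, and every overlapping pair shared constant exons. The tally is therefore no measure of how firm the results are. The count of 58 members became 60 with every Pcdh symbol on chromosome 18 (adding Pcdh1 and Pcdh12) and 57 with coding rows. The 4 constant exons with both edges identical in every coding member became 6 by the upstream edge alone and 8 when 2 members sufficed, since the last exon has several ends. The 8920 bases unique to 1 symbol by span became 161350 by exons, 129918 by coding bases and 92943 among members alone, and 168787 for exons among members alone, which was added after seeing the data. They stayed at 8920 for the same strand, for the longest row of each symbol and without the c-type members. The median step of 6896 bases over the 3 clusters became 3673 as a gap from exon end to next start, and 6769.5 without the c-type members. The 322 overlapping pairs stayed at 322 for 50% of the shorter span and for exons. The 33 alpha and gamma first exons held by 1 symbol became 36 among members alone, also added after seeing the data. Coordinates carry no sampling error, and how well the rows match transcripts in these cells was not tested.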

Other observations

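Coding lengths recurred within each cluster. The 22 beta genes had 16 distinct coding lengths, with 7 pairs of equal length. Of the 21 neighbouring beta pairs, 3 were equal (Pcdhb3 and Pcdhb4 at 2355 bases, Pcdhb10 and Pcdhb11 at 2394, and Pcdhb13 and Pcdhb14 at 2391). The 14 alpha genes had 9 distinct lengths and 8 equal pairs, which included 4 of the 13 neighbouring pairs. Among these, Pcdha1 and Pcdha2 both had 2847 coding bases, and Pcdha6, Pcdha7 and Pcdha8 all had 2841. The 21 coding gamma genes had 13 distinct lengths and 15 equal pairs, which included 3 of the 20 neighbouring pairs. All these lengths are multiples of 3 in a narrow range, such as 2739 to 2835 bases in the coding gamma genes. The equal pairs were not set against a baseline for such ranges. How similar the sequences of these genes are was not tested.

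The RefSeq table places further genes within the extent of the clusters that have no row in the annotation. They are 7 pseudogenes and the lncRNA gene Gm29994. Gm36858 (36976294 to 36990270, 13977 bases) lies in the wide step between Pcdha7 and Pcdha8, and Gm19035 (959 bases) in the one between Pcdha12 and Pcdhac1. Gm18529 lies between Pcdhb3 and Pcdhb4, Gm20162 between Pcdhb11 and Pcdhb12, and Gm24401 (91 bases) in the widest step among the a-type and b-type gamma genes, between Pcdhga5 and Pcdhga6. Gm18150 (576 bases) lies between Pcdha11 and Pcdha12, and Gm8242 (605 bases) between the beta and gamma clusters. Gm29994 (3120 bases) lies between exons 2 and 3 of the gamma genes. Other wide steps held none of these genes, namely Pcdhac1 to Pcdhac2, Pcdhb1 to Pcdhb2, Pcdhb8 to Pcdhb9, Pcdhb14 to Pcdhb15 and Pcdhga12 to Pcdhgc3.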
